A study of Mus musculus with 6 samples.

Results

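The genes examined here encode the enzymes that write, copy and erase DNA methylation and the core of Polycomb repressive complex 2 (PRC2) in mouse Th1 cells. The 10 genes, Dnmt1, Dnmt3a, Dnmt3b, Uhrf1, Tet1, Tet2, Tet3, Ezh2, Suz12 and Eed, were taken by name from the 54532 genes counted by RNA sequencing. All 10 were among the 15938 genes that passed the filter on low counts. CD4+ T cells were isolated from spleens of young adult male C57BL/6 mice by magnetic negative selection. They were activated on plate-bound anti-CD3 with anti-CD28 for 72 h under Th1 conditions, that is with IL-2, IL-12p70 and an antibody that blocks IL-4. Both groups shared these conditions. The ALX-5407 group (n = 3) also received 500 nM ALX-5407, which blocks glycine uptake by the transporter GlyT1, and the control group (n = 3) received vehicle (DMSO), with dose and vehicle taken from the methods of the study. The sample titles name 72 h under Th1 conditions with ALX-5407 treatment and give no separate length of exposure. The study's methods give a shorter exposure for RNA sequencing. Its figure legend for these data describes ALX-5407 in the culture medium and 3 days under Th1 conditions before RNA was extracted. The labels call the libraries biological replicates, and no source says whether they came from separate mice, so that p-values measure only the spread between these cultures.

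DNA methylation marks cytosines, mostly in CpG dinucleotides, and helps to hold genes silent through cell division. DNMT1 copies the mark onto the new DNA strand, guided there by UHRF1, whereas DNMT3A and DNMT3B place it on unmethylated DNA. TET1, TET2 and TET3 oxidise methylcytosine, which leads to its loss. PRC2, in which EZH2 is the methyltransferase and SUZ12 and EED are required core subunits, methylates histone H3 at the repressive H3K27 position. In CD4+ T cells these enzymes are known to limit or permit cytokine genes during lineage choice, and DNMT1, UHRF1 and EZH2 are known to rise in dividing cells.

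The libraries held 30801753 to 36727788 counts, with medians of 32518060 in the control and 34735568 in the ALX-5407 group. Levels are given as CPM, the count of a gene relative to the TMM-scaled library size. The CD4 T cell markers, among them Cd3e and Cd4, summed to 2589 to 2720 CPM in the control and 2547 to 2577 CPM in the ALX-5407 group. Of these 8 markers 2 were called higher and 5 lower, Cd4 among the latter. Of the markers of other cells, B cell genes summed to 8.45 to 9.37 CPM in the control and 12.8 to 15.7 CPM in the ALX-5407 group (3 of 7 genes higher, 0 lower). Macrophage and monocyte genes summed to 15.5 to 20.99 CPM and 5.38 to 6.30 CPM. Cd68, the 1 gene of 7 with enough counts to test, was lower. It made up nearly all of this sum, with means of 18.3 CPM in the control and 5.44 CPM with ALX-5407. NK cell genes summed to 34.3 to 39.5 CPM and 28.3 to 32.6 CPM. Klrk1, the 1 gene of 5 tested, was not called. It made up nearly all of the NK sum, with means of 35.8 and 30.7 CPM. CD8 T cell, dendritic cell and erythroid sums did not exceed 9.59 CPM in any library, and Siglech was at 0 in all. Of the 2 CD8 markers, Cd8a was called lower (log2 fold change -0.80, edgeR adjusted p = 0.0111). The part of such cells in the results was not tested.

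Of the 10 genes, 6 were higher and 1 was lower with ALX-5407 at a Benjamini-Hochberg adjusted p-value under 0.05 (quasi-likelihood test of edgeR). Among all genes tested, 24.5% were called higher and 23.2% lower, 47.7% in all, so that calls were frequent in this comparison. Only Tet2 also passed an absolute log2 fold change of 1, a threshold that 10% of all genes tested passed (3.36% higher and 6.68% lower). The groups did not overlap in CPM for 8 of the 10 genes, against 55.5% of all genes tested. The median log2 fold change of the 10 genes was 0.40, and that of all genes tested was 0.0053. In bulk RNA, fewer cells with a transcript and less of it per cell cannot be told apart.

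**Figure D1:**
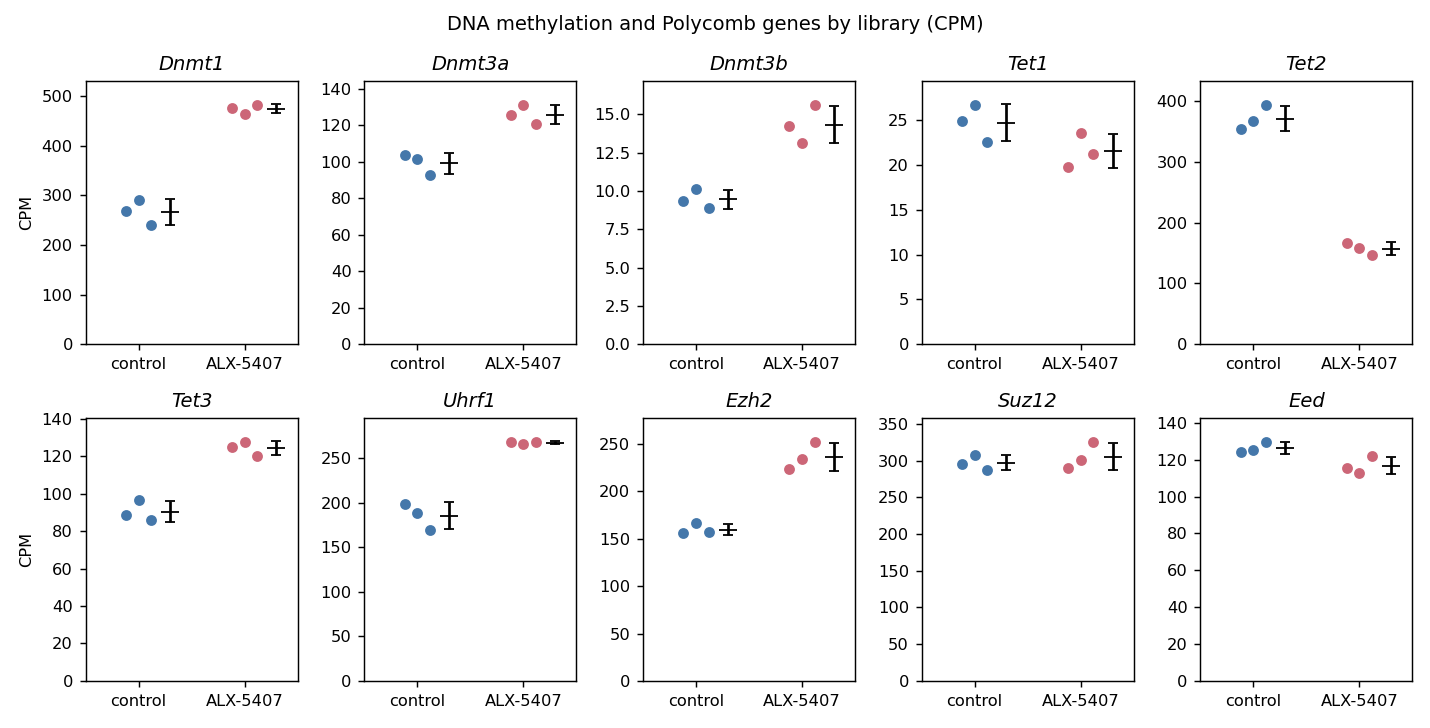
CPM of each gene in each library (points, control in blue and ALX-5407 in red) with the group mean and SD (black bars, n = 3). The Tet2 points of the ALX-5407 group lie at 146 to 167 CPM, all below the control points, whereas Dnmt1, Uhrf1, Dnmt3a, Dnmt3b, Tet3 and Ezh2 lie above them.

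The maintenance genes rose. Dnmt1 (ENSMUSG00000004099; GRCm38 chromosome 9, 20907209 to 20959888, - strand, up to 39 exons in a transcript) measured 268, 291 and 241 CPM in the control and 477, 465 and 482 CPM in the ALX-5407 group. Every treated culture lay above every control culture, and the treated cultures lay closer together. The mean went from 267 ± 25.2 to 475 ± 8.85 CPM (SD, n = 3), a 1.78-fold difference. Its log2 fold change of 0.83 (SE 0.0773, edgeR adjusted p = 2.99e-07) was the highest of the 10 genes. Uhrf1 (chromosome 17, 56303321 to 56323486, + strand), which recognises hemimethylated DNA behind the replication fork, measured 199, 188 and 169 CPM in the control. In the ALX-5407 group it measured 268, 265 and 268 CPM, a log2 fold change of 0.53 (SE 0.0737, edgeR adjusted p = 2.15e-05). Its 3 treated values were almost the same and all above the control values. Its paralog Uhrf2 measured 131 ± 2.62 and 124 ± 2.33 CPM (log2 fold change -0.072, edgeR adjusted p = 0.401).

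The de novo methyltransferase genes also rose, by less than Dnmt1 on the log2 scale. Dnmt3a (chromosome 12, 3806007 to 3914443, + strand) measured 104, 101 and 92.5 CPM in the control and 125, 131 and 121 CPM in the ALX-5407 group. The groups were close but did not overlap, and the log2 fold change was 0.34 (SE 0.0727, edgeR adjusted p = 0.00101). Dnmt3b (chromosome 2, 153649450 to 153687730, + strand) was the least counted of the 10 genes, with a mean of 406 counts. It measured 9.37, 10.1 and 8.87 CPM in the control and 14.2, 13.1 and 15.6 CPM in the ALX-5407 group, again without overlap. Its log2 fold change was 0.60 (SE 0.119, edgeR adjusted p = 0.000577). Dnmt3l, a cofactor without catalytic activity that is known from germ cells, had at most 2 counts in any library and was not tested.

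Per length, the 3 DNMT genes together had 43.9 ± 3.82 CPM per kb of exon in the control and 74.7 ± 1.12 CPM per kb in the ALX-5407 group (SD, n = 3). Dnmt1 made up most of this level in both groups, at 82.2 ± 0.714% in the control and 86.1 ± 0.315% with ALX-5407. The share of Dnmt3a went from 13.6 ± 0.667% to 10.1 ± 0.575%. The lengths are those of all annotated exons merged, so genes with many rarely used exons appear lower per length.

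The TET genes moved apart. Tet2 (chromosome 3, 133463679 to 133545139, - strand), the main TET gene of these cells per length, measured 354, 367 and 394 CPM in the control. In the ALX-5407 group it measured 167, 158 and 146 CPM. The highest treated value was below the lowest control value by a wide margin, and the mean fell from 372 ± 20.4 to 157 ± 10.5 CPM (SD, n = 3), to 0.423 of the control level. The log2 fold change was -1.24 (SE 0.0758, edgeR adjusted p = 3.91e-09). Tet3 (chromosome 6, 83362373 to 83459084, - strand) measured 88.8, 96.6 and 85.8 CPM in the control and 125, 128 and 120 CPM in the ALX-5407 group. It rose by a log2 fold change of 0.46 (SE 0.0723, edgeR adjusted p = 6.73e-05), with no overlap between the groups. Tet1 (chromosome 10, 62804570 to 62908996, - strand) measured 24.9, 26.7 and 22.6 CPM in the control and 19.8, 23.6 and 21.2 CPM in the ALX-5407 group. These groups overlapped, and its log2 fold change of -0.20 did not pass the test (95% interval -0.41 to 0.014, edgeR adjusted p = 0.117). Without the third control library it did, at -0.28 (edgeR adjusted p = 0.0319).

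The summed level of the TET genes fell from 29.0 ± 1.03 to 18.2 ± 0.801 CPM per kb (SD, n = 3). Tet2 held 75.8 ± 1.92% of it in the control and 51.3 ± 1.52% in the ALX-5407 group, while the share of Tet3 rose from 18.7 ± 1.36% to 41.0 ± 0.853%. The ratio of Tet2 to Tet3 per length was 3.94, 3.76 and 4.54 in the control libraries and 1.32, 1.23 and 1.20 in the treated ones. The mean ratio was thus 4.08 ± 0.412 in the control and 1.25 ± 0.0631 with ALX-5407, and Tet3 came close to Tet2. The ratio of Tet2 to Tet1 went from 13.9 ± 1.86 to 6.74 ± 0.864. Of the 7 ratios between genes that were compared, these 2 included, none overlapped between the groups. Each had p = 0.1 in an exact two-sided permutation test, and 0.1 after Benjamini-Hochberg adjustment over the 7, which is the smallest value 3 against 3 libraries can give.

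**Figure D2:**
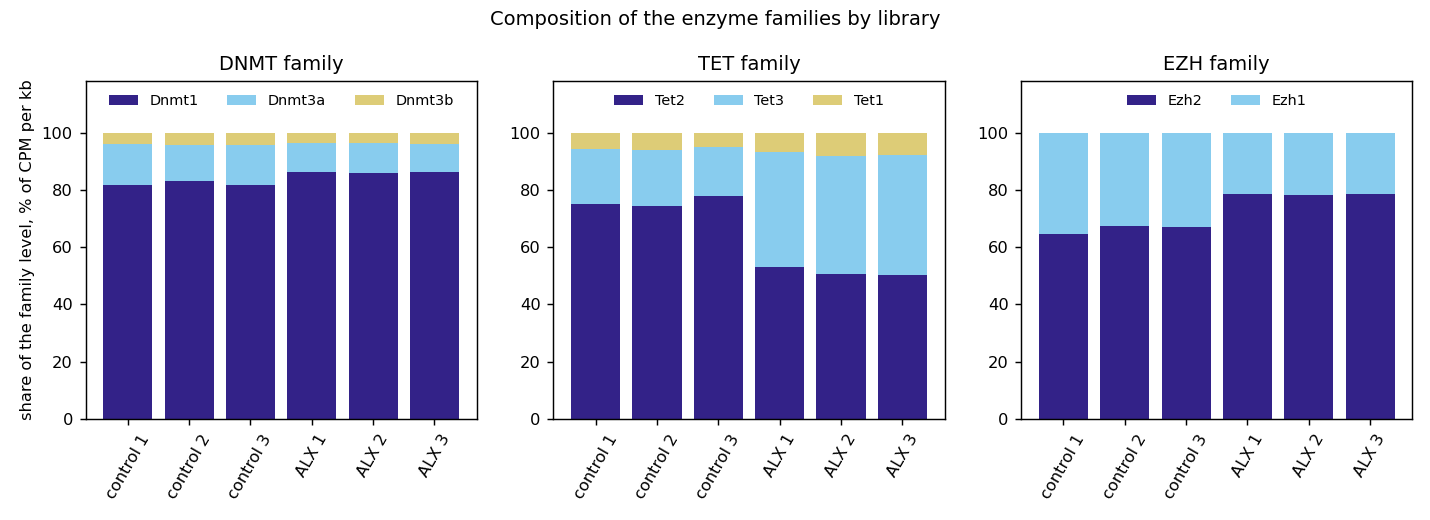
Share of each gene in the summed level of its family, in % of CPM per kb, for each library (stacked bars, ALX for ALX-5407). Tet2 holds 74.3% to 78.0% of the TET level in the control libraries and 50.3% to 53.0% in the treated ones, and the Ezh2 share of the EZH level is higher in each treated library than in each control library.

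Of Ezh2, Suz12 and Eed, only the gene of the catalytic subunit passed the test. Ezh2 (chromosome 6, 47530139 to 47595341, - strand) measured 156, 166 and 157 CPM in the control and 223, 234 and 252 CPM in the ALX-5407 group. It rose by a log2 fold change of 0.57 (SE 0.0723, edgeR adjusted p = 8.41e-06), and no treated culture overlapped a control culture. Suz12 (chromosome 11, 79993106 to 80034123, + strand), which holds the complex together, measured 296, 308 and 288 CPM in the control and 290, 301 and 326 CPM with ALX-5407. The groups overlapped, and the log2 fold change was 0.041 (95% interval -0.11 to 0.19, edgeR adjusted p = 0.673). Eed (chromosome 7, 89954654 to 89980983, - strand), which binds the finished mark, measured 124, 125 and 130 CPM in the control and 115, 113 and 122 CPM with ALX-5407. The treated values lay just below the control values, but the difference did not pass the test (log2 fold change -0.11, 95% interval -0.26 to 0.033, edgeR adjusted p = 0.193). For both subunits the interval excludes a rise of the size seen for Ezh2.

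The balance between the PRC2 genes differed accordingly. The ratio of Ezh2 to Suz12 per length was 0.390, 0.400 and 0.404 in the control libraries and 0.570, 0.575 and 0.573 in the treated ones. These values varied little within the groups and did not overlap. The ratio of Ezh2 to Eed went from 0.725 ± 0.0352 to 1.16 ± 0.0447 (SD, n = 3), so that Ezh2 was below Eed in the control and above it with ALX-5407. Ezh1, the paralog that is known for resting cells and is a weaker methyltransferase, fell from 90.5 ± 4.49 to 72.5 ± 4.37 CPM (log2 fold change -0.32, SE 0.0750, edgeR adjusted p = 0.00226). The Ezh2 share of the EZH level per length was thus 66.3 ± 1.52% in the control and 78.4 ± 0.259% in the ALX-5407 group. The ratio of Ezh2 to Ezh1 went from 1.97 ± 0.131 to 3.63 ± 0.0551.

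**Figure D3:**
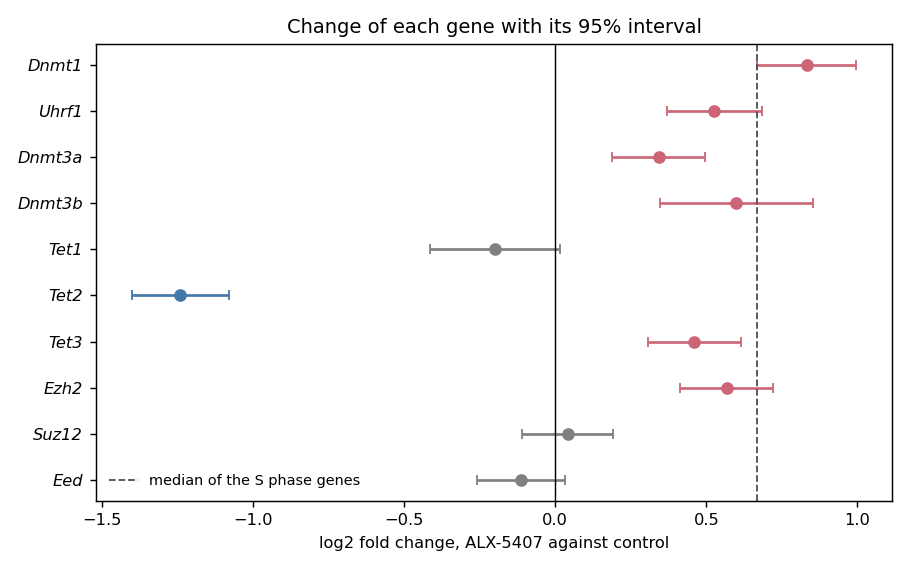
Log2 fold change of each gene (ALX-5407 against control) with its 95% interval from edgeR. Red points were called higher, blue lower and grey not called, and the dashed line marks the median of 44 S phase genes at 0.67. Tet2 lies alone below -1.

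Ordered by level per length, the control cultures had Suz12 first at 60.1 ± 2.09 CPM per kb, then Uhrf1 at 43.5 ± 3.48 and Dnmt1 at 36.1 ± 3.42 CPM per kb. Eed, Ezh2 and Tet2 came next, at 33.0, 23.9 and 22.0 CPM per kb, followed by Dnmt3a (5.96), Tet3 (5.42), Dnmt3b (1.85) and Tet1 (1.60). Dnmt1 and Eed, Ezh2 and Tet2, and Dnmt3a and Tet3 overlapped in this order. In the ALX-5407 group Dnmt1 came first at 64.3 ± 1.20 CPM per kb, before Uhrf1 at 62.7 ± 0.353 and Suz12 at 61.8 ± 3.71 CPM per kb. Suz12 overlapped with both there, and Dnmt1 lay only just above Uhrf1. Tet2 fell to 9.32 ± 0.624 CPM per kb, next to Dnmt3a at 7.55 ± 0.316 and Tet3 at 7.45 ± 0.228 CPM per kb. Exons of genes on the opposite strand covered at most 6.82% of the exon bases of any of the 10 genes (Eed), and whether counting used strand is not given in the sources used here.

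Partner genes of these enzymes were described by lists compiled from general knowledge, but with earlier results of these data known. Their shares are therefore descriptive and not those of a blind choice. Over 7 lists, 40 of the 93 genes tested were called higher (43%, against 24.5% of all genes tested) and 16 lower (17.2%, against 23.2%). For DNA methylation itself, 7 of 12 tested partners and readers were higher, 0 were lower and the median log2 fold change was 0.26. The count of 0 was the same at an unadjusted p under 0.05 and with DESeq2 and limma-voom. Without the third control library 1 gene was called lower, the methyl-CpG binding gene Mbd2 (log2 fold change -0.23, edgeR adjusted p = 0.00994). Trim28, the scaffold that recruits silencing enzymes to zinc finger proteins, rose from 246 ± 16.0 to 375 ± 8.68 CPM (log2 fold change 0.61, edgeR adjusted p = 3.79e-06). The methyl-CpG binding gene Zbtb4 (0.53), the chromatin remodelling partner Cdca7 (0.52) and Mbd3 of the NuRD complex (0.46) rose with edgeR adjusted p-values of 0.000201 or less. Of 12 tested genes around demethylation, 3 were higher and 3 lower, shares near the 24.5% and 23.2% over all genes, with a median of 0.14. Only 1 was higher without the second treated library. The base excision glycosylases of the NEIL family split, with Neil1 (-0.82) and Neil2 (-0.74) lower and Neil3 (0.76) higher. Gadd45b, a stress-induced adaptor, fell by 0.47 on the log2 scale, from 20.3 ± 0.648 to 14.6 ± 2.76 CPM. Tdg, the glycosylase that removes oxidised methylcytosine, had a log2 fold change of 0.19 (edgeR adjusted p = 0.0351), a call that 9 of 15 alternatives ended. Cxxc5, which binds unmethylated CpG, had one of 1.07 (edgeR adjusted p = 0.0135) on a mean of only 51.5 counts. It was not called without the third control library (log2 fold change 0.75, edgeR adjusted p = 0.0529) or without the second treated library (0.95, edgeR adjusted p = 0.0538).

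Of 11 tested partners of PRC2, 5 were higher and 4 lower, with a median log2 fold change of 0.22. Epop, an accessory subunit of the PRC2 form that also holds a Polycomb-like protein, rose from 15.3 ± 0.948 to 40.4 ± 3.00 CPM (log2 fold change 1.40, SE 0.0946, edgeR adjusted p = 1.08e-08). It was the only PRC2 partner past the fold change threshold. Jarid2, which guides the other form of PRC2 to its sites, fell from 359 ± 9.25 to 213 ± 6.77 CPM (log2 fold change -0.75, SE 0.0681, edgeR adjusted p = 2.22e-07). The histone chaperone Rbbp7 rose by 0.64 and the Polycomb-like gene Phf1 fell by 0.71 on the log2 scale, with edgeR adjusted p-values of 1.17e-06 and 7.48e-06. Among genes chosen after their values were seen, Aebp2, the usual companion of Jarid2, also fell (-0.33), and the Polycomb-like genes Phf19 (0.57) and Mtf2 (0.38) rose. Rbbp4, the paralog of Rbbp7, rose as well (0.43).

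**Figure D4:**
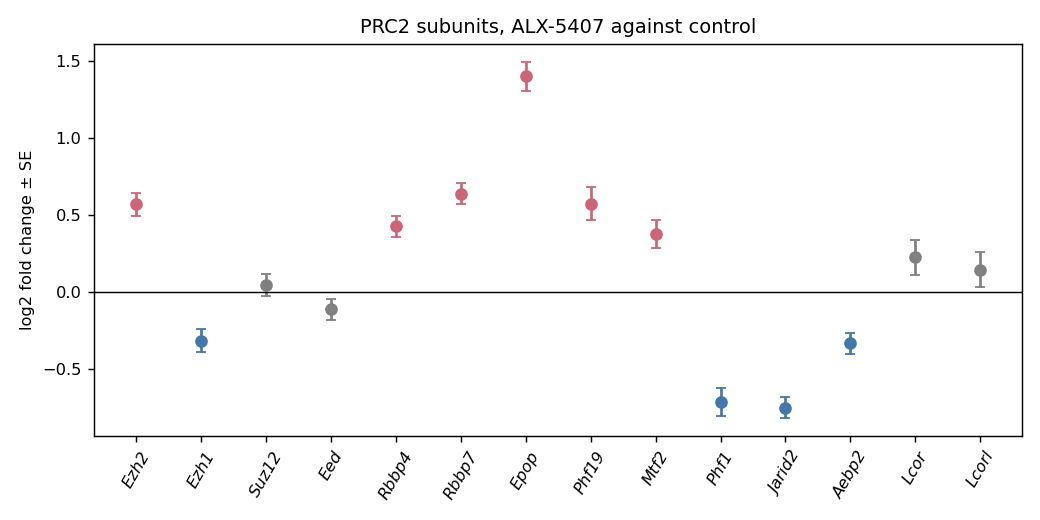
Log2 fold change of the 14 tested PRC2 genes (ALX-5407 against control; bars are standard errors from edgeR). Red points were called higher, blue lower and grey not called. Epop stands highest at 1.40, Jarid2 and Phf1 lowest at -0.75 and -0.71, and the core genes Suz12 and Eed lie near 0.

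All 25 PRC1 genes were tested. PRC1 is the second Polycomb complex, which places ubiquitin on histone H2A. Of its genes 9 were higher and 3 lower (24.5% and 23.2% over all genes tested), with a median of 0.064. The chromodomain genes Cbx2 (1.09, from 6.80 ± 0.553 to 14.5 ± 0.705 CPM) and Cbx6 (0.71), which read the H3K27 mark, and the corepressor Bcor (0.69) were among the higher ones. Pcgf5, a subunit of variant PRC1, fell from 363, 366 and 334 CPM to 238, 252 and 240 CPM (log2 fold change -0.54, edgeR adjusted p = 9.87e-06). Of 12 tested enzymes that oppose Polycomb marks, 5 were higher and 4 lower (again 24.5% and 23.2% over all genes), with a median of 0.068. These counts rested on single libraries, with 3 higher without the second control or the first treated library, and 2 lower without the third control or any 1 treated library. Kdm6b, an H3K27 demethylase, rose from 94.5 ± 16.3 to 155 ± 18.97 CPM (log2 fold change 0.71, edgeR adjusted p = 6.96e-05), while its paralog Kdm6a had -0.085 (edgeR adjusted p = 0.379). Asxl1, a subunit of the H2A deubiquitinase, rose (0.57), as did the H3K4 methyltransferase Kmt2d (0.47), and the deubiquitinase gene Mysm1 fell (-0.43).

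Of 9 tested histone methyltransferases whose marks guide DNA methylation, 6 were higher and 1 lower, with a median of 0.32. Over all genes tested, 24.5% were higher and 23.2% lower. The call of Setdb1, 1 of the 6, was lost in 10 of 15 alternatives. Nsd2 rose from 159 ± 8.97 to 282 ± 27.3 CPM (log2 fold change 0.83, edgeR adjusted p = 4.97e-07) and Nsd1 by 0.33. Their relative Nsd3 fell from 794 ± 44.7 to 545 ± 22.4 CPM (-0.54, edgeR adjusted p = 1.26e-05), and the H3K9 methyltransferase Suv39h1 rose (0.53). For the supply of the methyl donor S-adenosylmethionine and the cofactors of TET enzymes, 5 of 12 tested genes were higher and 1 lower. These counts stand beside the same 24.5% and 23.2% over all genes, and the median was 0.19. Mat2a, which makes S-adenosylmethionine, rose from 64.3 ± 8.81 to 99.2 ± 10.6 CPM (log2 fold change 0.63, edgeR adjusted p = 8.01e-05). Methionine synthase Mtr (0.56) and its reductase Mtrr (0.48) also rose. The 1 gene called lower, named after its value was seen, was Mat2b, the regulatory subunit for Mat2a, which fell from 90.9 ± 2.59 to 73.5 ± 0.955 CPM (log2 fold change -0.31, edgeR adjusted p = 0.00153).

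Dnmt1, Uhrf1 and Ezh2 are known to follow the cell cycle, so their changes were set beside 44 S phase genes. Of these, 39 were called higher by edgeR and 0 lower, against 24.5% and 23.2% of all genes tested. All 44 had a log2 fold change above 0 in edgeR, and DESeq2 and limma-voom also called 0 lower, likewise at an unadjusted p under 0.05. Hells and Cdca7 stand in this list and in that of the methylation partners. The median log2 fold change of the S phase genes was 0.67, and the 4 genes past the threshold were Rrm2 (1.52), Mcm2 (1.09), Exo1 (1.07) and Fen1 (1.33). The 5 not called, named after their values were seen, were Pcna (0.050), Pold3 (0.10), Ubr7 (0.093), Rfc2 (0.060) and Ccne2 (0.033). The mean log2 CPM of the 44 genes went from 5.44 ± 0.0721 to 6.09 ± 0.0599 (SD, n = 3), a difference of 0.65. Relative to this mean, Ezh2, Uhrf1 and Dnmt3b differed by -0.082, -0.12 and -0.049 on the log2 scale, and in each the groups overlapped. Tet3 (-0.19) also overlapped. Dnmt1 was 0.19 above its control level relative to the S phase genes. Its log2 values were 2.70, 2.73 and 2.40 in the control and 2.79, 2.83 and 2.77 with ALX-5407, with the third control library lowest. Dnmt3a was 0.30 below its control level on this scale (-0.30). In both genes the groups lay close and only just did not overlap. Suz12 (-0.61), Eed (-0.76), Tet1 (-0.85) and Tet2 (-1.89) lay further below, without overlap between groups. For the genes without overlap the exact two-sided permutation p was 0.1, the smallest possible, and 0.167 with Benjamini-Hochberg adjustment over the 10 genes.

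**Figure D5:**
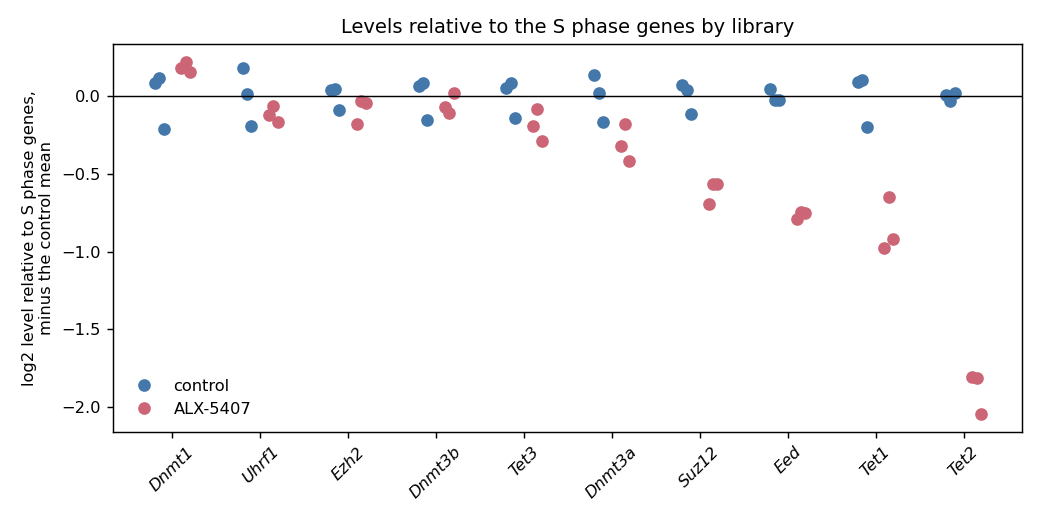
Log2 CPM of each gene minus the mean log2 CPM of the 44 S phase genes in the same library, shown relative to the control mean (points are libraries, control in blue and ALX-5407 in red). Ezh2, Uhrf1, Dnmt3b and Tet3 overlap between the groups, and Tet2 lies lowest, at -1.89 on average.

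E2F factors drive S phase genes through a short promoter motif. The sequences around the start sites were therefore searched for TTTNNCGC, in which each N is C or G, on both strands. All 10 genes matched a RefSeq promoter window (GRCm38.p6, 250 bases before to 50 after a start), with 15 windows in all because some genes have several starts. Of these windows 4 held the motif, one each in Dnmt1, Uhrf1, Ezh2 and Suz12, and the Dnmt1 window held 2. The motif was in 2.27% of all windows (3.93% of those of genes tested) and in 13 of 34 windows of the S phase genes. It was in 1 of 16 windows of the PRC2 partners and in 0 of 28 of the PRC1 subunits. The motif itself holds a CpG, and these sets were not matched for CpG number. The sites are shown 5′ to 3′ on the strand of the gene with 10 bases on each side where the window allows. Capitals mark the motif, which lies on the opposite strand in the first site. The second Dnmt1 site and the Ezh2 site begin 33 and 3 bases after a start, and the others lie before one.
Dnmt1, chr9:20952825-20952852, - strand: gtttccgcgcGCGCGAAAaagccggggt
Dnmt1, chr9:20952574-20952600, - strand: cggggcagcgTTTGGCGCgggctgtgc
Uhrf1, chr17:56304118-56304145, + strand: ccgagtcgggTTTCGCGCgcccaggcgt
Ezh2, chr6:47595010-47595037, - strand: ggttgctgcgTTTGGCGCtcggtccggt
Suz12, chr11:79992877-79992904, + strand: gacccctcatTTTCCCGCgaattcagtt

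In GENCODE M21 the Dnmt1 and Ezh2 sites overlap an annotated untranslated exon of some transcript, and the Uhrf1 and Suz12 sites overlap no exon of their gene. Dnmt1, Uhrf1 and Ezh2 rose, whereas Suz12, with a match of the same kind, had a log2 fold change of 0.041. Dnmt3a, Dnmt3b and Tet3 rose with no match in their windows. E2F binding was not measured, and a part of E2F in any of these changes was not tested. The window of Tet2, the gene that fell, held 57 CpG dinucleotides and no match, against a median of 30 CpG over the 15 windows and of 20 over the windows of genes tested. Its last 100 bases before the start are shown for this density of CpG, the dinucleotide that these enzymes act on.
Tet2, chr3:133544391-133544490, - strand: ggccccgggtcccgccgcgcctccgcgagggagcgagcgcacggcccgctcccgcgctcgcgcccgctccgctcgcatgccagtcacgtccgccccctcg

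Genes that DNA methylation or Polycomb are known to silence were also listed, and most were hardly counted. Of 18 germline genes kept silent by promoter methylation, 16 were not tested, with at most 19 counts in any library. Brdt, a testis bromodomain gene, rose from 5.76 ± 0.757 to 9.32 ± 0.609 CPM (log2 fold change 0.69, edgeR adjusted p = 0.000859), and Ddx4 was not called. Of 64 developmental genes that Polycomb silences, 56 were not tested, with at most 12 counts in a library. No count of calls is given for the 8 tested, since Cdkn2a, Cdkn2b and Hoxb9 reached the level of the filter in every ALX-5407 library but not in every control library, so that their difference is tied to the filter. Cdkn2a, the cell cycle inhibitor locus that is a classical Polycomb target, had 12, 17 and 5 counts in the control and 73, 74 and 69 counts with ALX-5407. Hoxb9 had 4, 2 and 0 counts in the control and 14, 19 and 33 in the ALX-5407 group. Of the genes that reached this level in all 6 libraries, Lhx2, a developmental homeobox gene, was higher (log2 fold change 1.07, edgeR adjusted p = 0.00232). Neurog2 fell from 6.92 ± 0.951 to 2.99 ± 0.697 CPM (log2 fold change -1.21, edgeR adjusted p = 8.15e-05).

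Many imprinted genes are known to carry different DNA methylation on the parental alleles. Whether each listed gene is imprinted in T cells was not examined. Of 27 tested, 6 were higher and 7 lower, shares near those over all genes (24.5% and 23.2%), and 4 of the 27 reached the level of the filter in all libraries of 1 group only. Plagl1, a growth regulator, fell from 20.1 ± 1.40 to 6.94 ± 0.804 CPM (log2 fold change -1.54, SE 0.121, edgeR adjusted p = 5.73e-08). Kcnq1ot1, a noncoding RNA, rose from 10.3 ± 0.328 to 19.5 ± 1.28 CPM (0.92), and Igf2r, a receptor that clears IGF2, rose by 0.40. The tetraspanin Cd81 (-0.70) and the noncoding RNA H19 (-0.998) were lower, and the adaptor Grb10 (1.67) was higher on a mean of 49.5 counts. Gene counts do not tell the alleles apart and do not measure methylation.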

How the data were processed

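RNA was measured in 6 cultures, 3 per group, grouped by the sample labels. The authors deposited raw read counts per gene without normalization or pooling, and per the labels' processing notes reads passed through fastp, HISAT2 2.0.5 and featureCounts 1.5.0-p3 against mm10. Settings for strand and reads with several matches are not given in the sources used here. The labels describe poly(A) capture and the study's methods depletion of ribosomal RNA, and rRNA genes held 0.150% to 0.239% of counts. The deposited gene lengths (other) were used for CPM per kb, and coordinates were the same in GENCODE M21.

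Genes were filtered by filterByExpr (minimum count 10, total 15) and tested by edgeR 4.0.16 (TMM factors 0.965 to 1.03, quasi-likelihood test, Benjamini-Hochberg over 15938 genes) in R 4.3.3. The SE is the fold change over the square root of F. Ratios were tested by exact permutation (scipy 1.17.1). The edgeR, DESeq2 and limma-voom fits were tested on simulated counts with known changes, which did not cover the permutation tests. DESeq2 1.42.0, limma-voom (limma 3.58.1), other scalings and filters and left-out libraries were alternatives. Replicates differed by more than counting noise (chi-square over degrees of freedom 5.35 to 20.2).

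The members and lists were chosen with earlier results of these data known. Named genes are the 10 members, Ezh1, Uhrf2, Dnmt3l, Kdm6a, Kdm6b, Tdg, the first 4 called genes by p in every list (6 for silenced targets) and called partners past a log2 fold change of 1, and some of these are not reported here. Mcm3 and Mcm4 of this rule had log2 fold changes of 0.92 and 0.85.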

Additional observations from a re-analysis of the deposited data

How the results depend on the processing

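All 6 genes called higher kept their call and direction under each of the 15 alternatives, as did Tet2. Tet2 ranged from -1.29 to -1.18 and Dnmt1 from 0.78 to 0.89 over the settings other than left-out libraries. Tet1 was called lower with upper quartile scaling (log2 fold change -0.25) and with protein-coding genes only (-0.25), which made 2 genes lower in place of 1. With 1 library left out, 1 to 2 genes were lower and Tet1 ranged from -0.28 to -0.14. The cause was not tested. No pairing of the cultures by replicate number was detected (correlations of same-numbered deviations -0.0084, 0.0036 and 0.063). Such correlations over all genes tested cannot show that same-numbered cultures had separate origins. With the replicate block 6 genes were higher and 1 lower, with Tet2 at -1.24. Relative to the S phase genes, Dnmt3b changed from -0.049 to 0.062 and Ezh2 from -0.082 to 0.029 when the median of these genes replaced their mean. Of the called list genes, the calls of Tdg and Setdb1 were lost in 9 and 10 of 15 alternatives. Other scalings moved the median of all genes to between -0.048 and 0.064. For the enzymes that oppose Polycomb marks, upper quartile scaling and protein-coding genes only left 3 higher in place of 5, and total counts left 2 lower in place of 4. At this depth genes under 50 counts, such as Cdkn2a and Hoxb9, have wide errors.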
